A study of Mus musculus with 6 samples.

Results

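The genes described here are 10 members of the BCL2 family, chosen by symbol from the 54532 genes of the count table. All 10 were found, each as a single entry, and all 10 passed the filter on low counts that left 14530 genes for testing. They comprise 3 anti-apoptotic genes (Bcl2, Bcl2l1 and Mcl1) and 7 pro-apoptotic genes (Bax, Bak1, Bcl2l11, Bbc3, Pmaip1, Bmf and Bid). Splenic CD4+ T cells of C57BL/6 mice were held for 72 h in T helper 1 (Th1) polarising culture. In the idelalisib group 3 cultures also received idelalisib, which blocks the delta form of phosphoinositide 3-kinase (PI3K), and in the control group 3 cultures did not. Neither a dose nor a solvent control is named in the labels, and the titles call the 3 samples of a group biological replicates without saying whether they came from separate mice, so p-values cover only the variation among these 6 cultures.

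BCL2 family proteins set the threshold for mitochondrial apoptosis. BCL2, BCL-XL (from Bcl2l1) and MCL1 hold the effectors BAX and BAK in check, and the effectors, once free, permeabilise the outer mitochondrial membrane so that cytochrome c is released. The BH3-only proteins BIM (Bcl2l11), PUMA (Bbc3), NOXA (Pmaip1), BMF and BID carry stress and starvation signals into the family, either by occupying the anti-apoptotic proteins or by engaging the effectors. In T cells, BIM and BCL2 are a well-known opposing pair after activation, and PI3K signalling is known to restrain FOXO transcription factors, for which Bcl2l11 and Bbc3 are described targets.

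Libraries held 13372318 to 16770452 counts, and mitochondrial genes took 1.84% to 2.27% of them. The T cell marker genes summed to 5160 to 5335 CPM (counts relative to TMM-scaled library size) in control and 4711 to 5326 CPM in idelalisib libraries, and of 14 markers, all tested, 2 were higher (Cd3e and Cd3g) and 2 lower (Lck and Trbc1). Idelalisib replicate 2 stood apart from the other libraries on the second principal component, which held 11.8% of the variance. Markers of other cells moved with the drug: 6 of 10 tested B cell markers were higher and none was lower, with a summed level of 67.7 to 69.6 CPM in the controls and 78.7 to 88.7 CPM with idelalisib. Ighm and Ebf1 made up most of that sum and were not called, and without control replicate 1 only 3 B cell markers were higher. Natural killer cell markers summed to 13.5 to 17.2 and 24.1 to 26.4 CPM (2 of 2 tested higher), with Ncr1 at 0 counts in all 6 libraries. Most of that sum came from the 2 tested genes, Klrk1 (mean 11.7 and 15.2 CPM) and Eomes (2.88 and 9.30 CPM). The untested ones had at most 13 reads in any library. Among these, Klrb1c had 2 to 3 reads in control and 0 to 1 with idelalisib, and Klra9 had 1 to 2 and 2 to 13. Granulocyte markers summed to 48.7 to 51.0 and 119.5 to 148.7 CPM (2 of 3 tested higher), nearly all from Ly6g and Cxcr2, while S100a8, S100a9 and Csf3r had 0 counts in control libraries and at most 3 in any idelalisib library. Both CD8 markers were tested and 1 was higher, with sums of 4.43 to 7.86 and 7.24 to 9.50 CPM. Myeloid and dendritic markers were lower in sum, 17.7 to 19.95 against 11.7 to 15.3 CPM, with 1 of 2 tested genes (Cd68) lower and Siglech at 0 counts throughout. Cd68 made up most of that sum, at a mean of 16.7 CPM in control and 10.5 CPM with idelalisib. The other tested gene, Flt3, had a log2 fold change of 0.66 and was not called. Lyz2, not tested, had 1 to 3 reads in control and 7 to 12 with idelalisib. The part of such cells in the results below was not tested, and fewer cells of a type cannot be told apart from less RNA per cell.

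Of the 10 genes, 3 changed. A gene was called where its p-value from edgeR's quasi-likelihood test, adjusted by Benjamini-Hochberg over all 14530 genes, was under 0.05. Bax and Bbc3 fell, and Bak1 rose. That is 1 gene higher, where 22.2% of all tested genes were higher, and 2 lower, where 22.4% were lower; in either direction 44.6% of tested genes were called. CPM did not overlap between the groups for the same 3 members, against 54.6% of tested genes. None of the 3 anti-apoptotic genes was called. Without idelalisib replicate 2, the library that stood apart, 1 member was higher and 3 were lower, Pmaip1 being added. The members' log2 fold changes, idelalisib over control, had a median of -0.04 against 0.01 for all tested genes, and their absolute values had a median of 0.21 against 0.36.

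**Figure D1:**
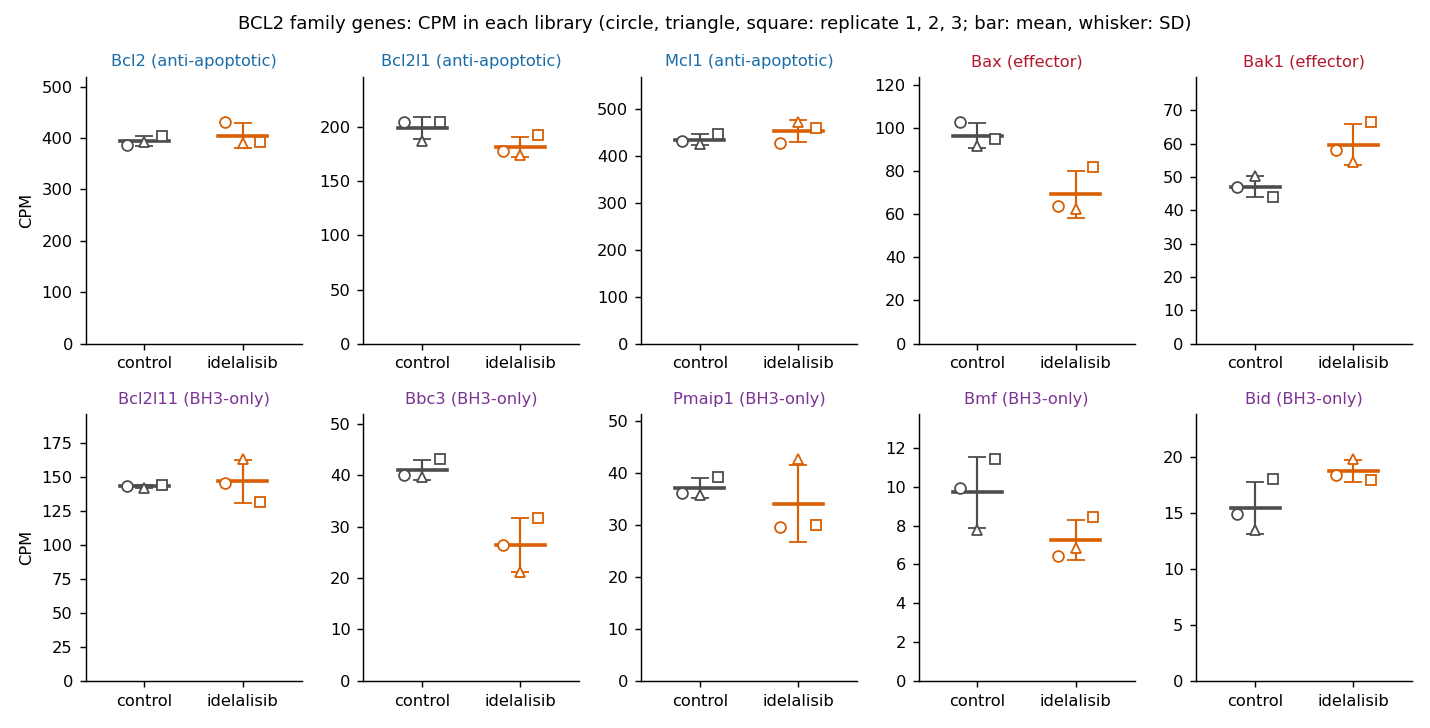
CPM on TMM-scaled library sizes (vertical axes, each from 0) of the 10 BCL2 family genes in 3 control and 3 idelalisib libraries; symbols are replicates 1 to 3, bars the mean and whiskers the SD. The groups are separate for Bax, Bbc3 and Bak1 and overlap for the other 7 genes.

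The sequences before 3 of these genes are shown because Bax and Bbc3 are the members that fell and because Bcl2l11, with Bbc3, is the member usually linked to FOXO factors. Each is the 250 bases before an annotated start from RefSeq on GRCm38.p6, the assembly of mm10, printed 5′ to 3′ on the gene's strand; the Bbc3 start shown lies within the gene, downstream of another annotated start. Capitals mark matches to the FOXO core GTAAACA on either strand, the E-box CACGTG (its own reverse complement) or the consensus p53 half-site.

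Bax, chr7:45466899-45467148, minus strand: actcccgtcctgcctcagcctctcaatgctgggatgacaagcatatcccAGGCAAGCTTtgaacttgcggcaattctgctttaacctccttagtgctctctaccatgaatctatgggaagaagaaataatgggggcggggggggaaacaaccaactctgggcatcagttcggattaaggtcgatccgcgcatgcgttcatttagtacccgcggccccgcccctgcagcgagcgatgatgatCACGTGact

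Bbc3, chr7:16310011-16310260, plus strand: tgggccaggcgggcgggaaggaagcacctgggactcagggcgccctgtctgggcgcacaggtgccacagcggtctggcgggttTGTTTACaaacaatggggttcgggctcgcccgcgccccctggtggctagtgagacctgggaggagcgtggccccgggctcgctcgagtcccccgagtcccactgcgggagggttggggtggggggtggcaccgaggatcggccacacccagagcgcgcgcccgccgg

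Bcl2l11, chr2:128125788-128126037, plus strand: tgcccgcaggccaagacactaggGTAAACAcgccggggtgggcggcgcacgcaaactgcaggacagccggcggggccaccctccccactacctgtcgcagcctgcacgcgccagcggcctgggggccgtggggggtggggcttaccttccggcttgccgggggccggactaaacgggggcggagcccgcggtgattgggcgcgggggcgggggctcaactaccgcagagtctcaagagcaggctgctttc

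In these windows Bax carried an E-box match 9 bases before its start and a p53 half-site match 201 bases before it. Bbc3 carried a FOXO match, on the minus strand, 167 bases before the start shown, and an E-box match in the window of another of its starts, chr7:16310181-16310430, 64 bases before that start. Bcl2l11 carried a FOXO match 227 bases before the start shown. The other windows of Bbc3 and Bcl2l11 held no FOXO match. The only other p53 half-site match among the members lay in 1 of 3 Bmf windows, 213 bases before the start. Windows for 9 of the 10 members were read, 16 in all, and that of Pmaip1 was not used here. All 250 bases of the Bak1 window lay in annotated exons. The same held for the Bcl2l1 windows chr2:152828490-152828739 and chr2:152830718-152830967. Genes with a match in any window made up 3.54% of 27025 genes for the FOXO core, 6.86% for the E-box and 8.2% for the p53 half-site. Also searched on both strands were the GC box GGGCGG, which 35.4% of genes and 6 members (Bcl2, Bcl2l11, Mcl1, Bid, Bbc3 and Bax) held, the E2F forms TTTCCCGC (1.03%) and TTTGGCGC (0.485%), the CRE TGACGTCA (1.77%), the heat shock element GAANNTTC (7.73%) and an NF-kappaB consensus (0.159%). No member's windows held a match to the E2F, CRE, heat shock or NF-kappaB letters. A FOXO match thus stands before Bbc3, which fell, and before Bcl2l11, which was not called. The match is a description of letters and was not tested against binding.

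Among the anti-apoptotic genes, Bcl2 (ENSMUSG00000057329, mm10 chromosome 1, 106538178 to 106714274) encodes the founding survival protein of the family. Control replicates 1, 2 and 3 held 385, 393 and 404 CPM, and idelalisib replicates 432, 391 and 391 CPM. Idelalisib replicate 1 was the highest of the 6 and the other libraries lay within the control range. Its log2 fold change was 0.04 (SE 0.08, 95% interval -0.12 to 0.20, edgeR adjusted p = 0.704), an interval that spans folds of 0.917 to 1.15.

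Mcl1 (ENSMUSG00000038612, chromosome 3, 95658788 to 95663176) encodes a short-lived survival protein that activated lymphocytes depend on. It was at 430.4, 426 and 447 CPM in the controls and 428, 473 and 458 CPM with idelalisib. Idelalisib replicates 2 and 3 were above every control library and replicate 1 was within their range. The log2 fold change was 0.06 (SE 0.08, interval -0.10 to 0.22, edgeR adjusted p = 0.538).

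Bcl2l1 (ENSMUSG00000007659, chromosome 2, 152780668 to 152831728) encodes BCL-XL, which T cells induce on costimulation, and a short splice form of opposite effect. Counts per gene do not separate these forms. Controls held 205, 188 and 205 CPM and idelalisib libraries 178, 175 and 193 CPM. Idelalisib replicate 3 exceeded control replicate 2, and the groups overlapped. Its log2 fold change was -0.13 (SE 0.08, interval -0.30 to 0.03, edgeR adjusted p = 0.181). Scaled by library size alone, which took the all-gene median from 0.01 to 0.16 on the log2 scale, Bcl2 and Mcl1 were called higher at 0.19 and 0.22 (edgeR adjusted p = 0.0484 and 0.0273) and Bcl2l1 was at 0.02.

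The 2 effector genes moved in opposite directions. Bax (ENSMUSG00000003873, chromosome 7, 45461697 to 45466898), whose protein moves from the cytosol to mitochondria on activation, had 1644, 1385 and 1324 reads in control and 968, 879 and 1367 reads in idelalisib libraries. That is 103, 91.5 and 94.6 CPM against 63.7, 62.2 and 81.6 CPM. All idelalisib libraries were below all control libraries, with replicate 3 nearest to them. Bax fell by 28.1%, with a log2 fold change of -0.48 (SE 0.11, interval -0.70 to -0.25, edgeR adjusted p = 0.00235). Leaving out 1 library at a time gave -0.60 to -0.40, with adjusted p up to 0.0225. Of the words of 50 bases in its longest coding transcript, 13.8% also occur in Gm45808, an overlapping gene on the same strand that had 0 counts.

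Bak1 (ENSMUSG00000057789, chromosome 17, 27019810 to 27029009), whose protein resides in the outer mitochondrial membrane, was at 47.0, 50.1 and 43.9 CPM in the controls and 57.9, 54.5 and 66.6 CPM with idelalisib. All idelalisib libraries were above all control libraries. Bak1 rose 1.27-fold, a log2 fold change of 0.35 (SE 0.10, interval 0.14 to 0.55, edgeR adjusted p = 0.0106), and without control replicate 3 the value was 0.30 and the call was lost (adjusted p = 0.0651). Bak1 shares 18.2% of its words of 50 bases with Ggnbp1 on the opposite strand. Ggnbp1 itself had 3.95 ± 0.572 CPM in the controls and 5.09 ± 1.38 CPM with idelalisib (SD, n = 3) and was not called (edgeR adjusted p = 0.230).

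Because the effectors moved apart, the ratio of Bax to Bak1, in RPKM (counts scaled by gene length and library size), was 3.34, 2.79 and 3.29 in control and 1.68, 1.74 and 1.87 in idelalisib libraries. This ratio within a library does not depend on the scaling between libraries, though its level depends on the gene length used. The groups did not overlap. The sum of both effectors was 84.8, 78.9 and 78.3 RPKM in control and 64.5, 62.1 and 79.5 RPKM in idelalisib libraries. In this sum the groups overlapped, through idelalisib replicate 3.

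**Figure D2:**
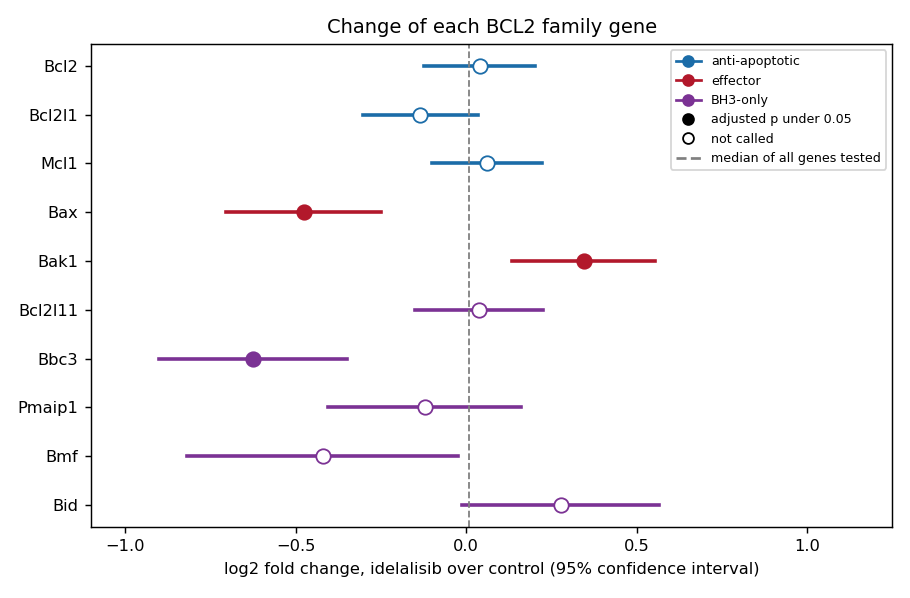
Log2 fold change, idelalisib over control (horizontal axis), of each BCL2 family gene with its 95% confidence interval; filled points passed an adjusted p under 0.05 and the dashed line is the median of all 14530 tested genes. Bax and Bbc3 lie to the left and Bak1 to the right, and the 3 anti-apoptotic genes lie close to the line.

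Of the 5 BH3-only genes, Bbc3 was the one called. Bbc3 (ENSMUSG00000002083, chromosome 7, 16308393 to 16318205) encodes PUMA, a broad antagonist of the anti-apoptotic proteins. It had 641, 599 and 604 reads in control and 401, 300 and 532 reads in idelalisib libraries, or 40.1, 39.6 and 43.2 CPM against 26.4, 21.2 and 31.8 CPM. All idelalisib libraries were below all control libraries. Idelalisib replicate 2 was the lowest and replicate 3 the highest of that group. Bbc3 fell by 35.2%, the largest change among the 10 members, with a log2 fold change of -0.63 (SE 0.13, interval -0.90 to -0.35, edgeR adjusted p = 0.00135). Among all tested genes, 27.6% had a larger absolute log2 fold change. Leaving out 1 library at a time gave -0.77 to -0.48, with adjusted p up to 0.0104.

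Bcl2l11 (ENSMUSG00000027381, chromosome 2, 128126038 to 128162547) encodes BIM, a main killer of activated T cells once growth factors run out. The controls held 143, 142 and 144 CPM and the idelalisib libraries 146, 163 and 132 CPM. The idelalisib libraries lay on both sides of the narrow control range, with replicate 2 the highest and replicate 3 the lowest. Its log2 fold change was 0.04 (SE 0.09, interval -0.15 to 0.23, edgeR adjusted p = 0.749). In absolute size 94.1% of tested genes exceeded it.

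Pmaip1 (ENSMUSG00000024521, chromosome 18, 66458604 to 66465550) encodes NOXA, which chiefly binds MCL1. It was at 36.1, 35.8 and 39.3 CPM in the controls and 29.6, 42.7 and 30.04 CPM with idelalisib. Idelalisib replicate 2 was above every control library and the other two were below them. The log2 fold change was -0.12 (SE 0.13, interval -0.40 to 0.16, edgeR adjusted p = 0.477), and without idelalisib replicate 2 it was -0.30 and passed the test (edgeR adjusted p = 0.0164).

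Bmf (ENSMUSG00000040093, chromosome 2, 118528757 to 118549687), a sensor of detachment and cytoskeletal stress, was the least abundant member, with 97 to 160 reads per library. It was at 9.95, 7.79 and 11.4 CPM in the controls and 6.45, 6.87 and 8.42 CPM with idelalisib, and the groups overlapped. A log2 fold change of -0.42 (SE 0.19, interval -0.82 to -0.02) missed the threshold (edgeR adjusted p = 0.0792). Bmf passed it without control replicate 2 (-0.56, adjusted p = 0.0390) and without idelalisib replicate 3 (-0.53, adjusted p = 0.0477).

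Bid (ENSMUSG00000004446, chromosome 6, 120891930 to 120916853), which links death receptors to mitochondria after caspase cleavage, was at 14.9, 13.5 and 18.01 CPM in the controls and 18.4, 19.8 and 17.98 CPM with idelalisib. Control replicate 3 was level with the lowest idelalisib library. The log2 fold change was 0.28 (SE 0.13, interval -0.01 to 0.57, edgeR adjusted p = 0.109), and it was called higher when scaled by library size alone (0.43, edgeR adjusted p = 0.0163). Bid shares part of its locus with Bcl2l13 on the opposite strand, which had 7196 reads in all against 1554 for Bid. Without a stated strand setting, reads from the overlap cannot be told apart.

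Levels can be compared between members only per length, and the RPKM here use the deposited gene length. Mcl1 was the most abundant in both groups, at 127 ± 3.23 RPKM in control and 133 ± 6.70 RPKM in idelalisib libraries (SD, n = 3). In control it was followed by Bax at 61.1 ± 3.73 RPKM, then by Bcl2l1 and Bcl2 at 43.5 ± 2.197 and 43.0 ± 0.998 RPKM, whose libraries overlapped. Bak1 and Bbc3 came next at 19.5 ± 1.30 and 19.3 ± 0.916 RPKM, also overlapping, before Bcl2l11 at 17.8 ± 0.143, Pmaip1 at 14.0 ± 0.736, Bid at 4.36 ± 0.654 and Bmf at 1.85 ± 0.349 RPKM. With idelalisib, Bcl2, Bax and Bcl2l1 stood close together at 44.2 ± 2.58, 43.9 ± 6.85 and 39.6 ± 2.07 RPKM. Bbc3 passed from rank 6 to rank 8, at 12.5 ± 2.48 RPKM, and its libraries overlapped those of Pmaip1 at 12.9 ± 2.81 RPKM. This order depends on the length used, since the deposited length exceeds the longest coding transcript in GENCODE M21 for 8 members, by 1.01 (Bak1) to 1.79 times (Bcl2l1), with 1.62 for Bid, 1.59 for Bcl2l11 and 1.43 for Bax. By transcript length, an alternative added after seeing the data, Bcl2l1 stood above Bcl2 in control without overlap, at 77.7 ± 3.92 against 54.8 ± 1.28 RPKM. Bcl2l11, at 28.4 ± 0.232 RPKM, then stood above Bbc3 at 22.6 ± 1.08 and Bak1 at 19.7 ± 1.31 RPKM. With idelalisib Bax passed from rank 2 to rank 3 and Bbc3 from rank 6 to rank 7 on that scale.

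Set against each other, the anti-apoptotic genes summed to 213, 208 and 219.6 RPKM in control and 211, 219 and 219 RPKM in idelalisib libraries, and these ranges overlapped. The pro-apoptotic genes summed to 141, 134 and 139 RPKM in control and 113, 116 and 129 RPKM in idelalisib libraries, which did not overlap. The ratio of the sums was 1.51, 1.56 and 1.58 in control and 1.88, 1.90 and 1.70 in idelalisib libraries. Every idelalisib library was above every control library, and replicate 3 was nearest to them. By transcript length the ratios were 1.40 to 1.47 and 1.58 to 1.74. Bax made up 44.3 ± 1.66% of the pro-apoptotic sum in control and 36.8 ± 3.10% in idelalisib libraries. The mean pro-apoptotic sum went from 138 to 119 RPKM and Bax alone from 61.1 to 43.9 RPKM. Most of the fall in the sum, and so of the shift in the ratio, thus lay in 1 gene and not across the class. Mean RPKM of Bbc3, Pmaip1 and Bmf was also lower with idelalisib, while that of Bak1, Bcl2l11 and Bid was higher. The BH3-only genes summed to 57.3 ± 2.73 and 50.3 ± 2.73 RPKM (SD, n = 3). Sums over members are descriptions of RNA and carry no test, since the members were chosen with results of these data known.

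**Figure D3:**
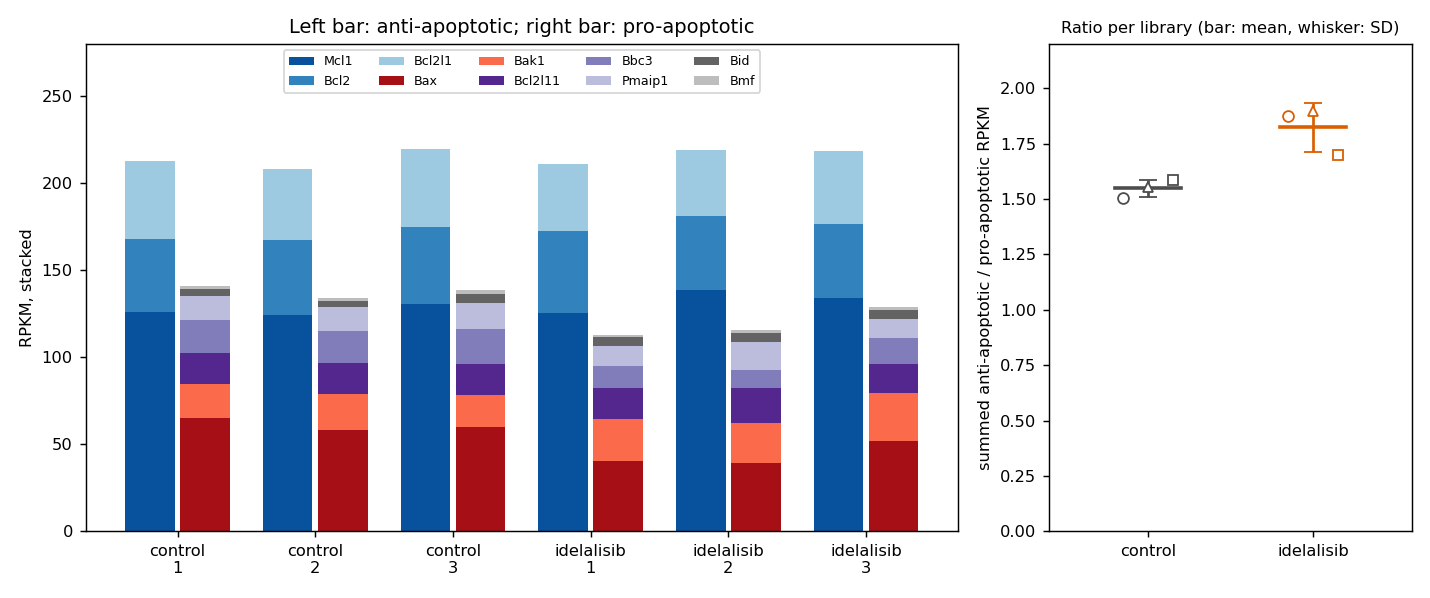
Left, stacked RPKM of the 3 anti-apoptotic genes and the 7 pro-apoptotic genes in each of the 6 libraries; right, the ratio of the 2 sums per library with the mean (bar) and SD (whisker). The anti-apoptotic bars keep their height across libraries, while the pro-apoptotic bars are shorter in the idelalisib libraries, and the ratio is 1.51 to 1.58 in control and 1.70 to 1.90 in idelalisib libraries.

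Single pairs differed in this. The ratio of Bcl2 to Bcl2l11 in RPKM was 2.36, 2.43 and 2.46 in control and 2.60, 2.10 and 2.60 in idelalisib libraries, with overlap. The ratio of Bcl2 to Bax was 0.645, 0.739 and 0.734 in control and 1.17, 1.08 and 0.825 in idelalisib libraries, without overlap. The ratio of Mcl1 to Pmaip1 was 9.23, 9.21 and 8.80 in control and 11.2, 8.58 and 11.8 in idelalisib libraries, and idelalisib replicate 2 fell below every control library. The ratio of Bcl2l11 to Bbc3, 0.946, 0.948 and 0.882 in control and 1.46, 2.03 and 1.10 in idelalisib libraries, did not overlap. Which gene of a pair stands higher depends on the length used, while the relative change between groups does not. By transcript length Bcl2l11 was above Bbc3 already in control, at 28.4 against 22.6 RPKM. On that scale Bcl2 stayed below Bax with idelalisib, at 56.3 against 62.9 RPKM. The ratio of the anti-apoptotic sum to the effector sum ranged from 2.51 to 2.81 in control and from 2.75 to 3.53 in idelalisib libraries, with overlap.

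Of 16 other genes of the family or named after it, 11 were tested, 2 were higher, 2 were lower and the median log2 fold change was 0.29. The share called was 36.4%, against 44.6% of all tested genes. The lower genes were Bnip3 and Bnip3l, which encode mitophagy receptors induced by hypoxia. Bnip3 dropped from a mean of 132 to 89.9 CPM, or -0.55 on the log2 scale (SE 0.08, adjusted p = 0.000127, edgeR), and Bnip3l from 309 to 222 CPM, or -0.48 (SE 0.08, adjusted p = 0.000193), and both calls held in all 17 alternatives. The higher genes were Bcl2a1b, which encodes the survival protein A1, at 0.52 (SE 0.18, edgeR adjusted p = 0.0274) and the BH3-only gene Bik at 1.00 (SE 0.37, adjusted p = 0.0388). Bcl2a1b shares 79.2% of its words of 50 bases with other genes, chiefly its paralogue Bcl2a1d (0.35, adjusted p = 0.159), so how reads were split between the copies is uncertain. The call of Bcl2a1b was lost without any 1 control library or without idelalisib replicate 3 (adjusted p up to 0.0901). Bik had 9 to 27 reads in control and 28 to 49 in idelalisib libraries, and its call was lost when control replicate 1 or 3, or idelalisib replicate 1 or 3, was left out (adjusted p up to 0.145). The survival gene Bcl2l2 was at -0.04 (adjusted p = 0.780), the BH3-only gene Bad at 0.42 (0.0774), and Bcl2l12, Bcl2l13, Bcl2l14 and Bcl2l15 at 0.29, 0.06, 0.41 and 0.10, none of them called. Bad and Bcl2l12 overlap better-covered genes on the opposite strand, Gpr137 and Irf3.

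Downstream of the effectors, 5 of 17 genes were higher and 3 lower, with a median log2 fold change of -0.03. That is 47.1% called, near the 44.6% of all tested genes. Casp9, the initiator caspase of this route, rose by 0.83 (SE 0.14, edgeR adjusted p = 0.000358), with 138 to 169 reads in control and 224 to 331 in idelalisib libraries. Diablo, which encodes an antagonist of inhibitor of apoptosis proteins, rose by 0.60 (SE 0.17, adjusted p = 0.00932), and overlaps Gm15751 on the opposite strand, which had 394 reads in all against 700. Among those inhibitors, Birc5, the mitotic protein survivin, rose by 0.96 and Birc2, which encodes cIAP1, fell by 0.75 on the log2 scale, while Xiap and Birc3 were at 0.15 and -0.03 and were not called (edgeR adjusted p = 0.260 and 0.807). Cycs, which encodes cytochrome c, was at -0.03 (adjusted p = 0.822) and Apaf1, the apoptosome scaffold, at -0.22 (adjusted p = 0.0591). The latter 4 genes were chosen after their values were seen.

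Of 19 tested p53 target genes, a list that holds none of the 10 members, 4 were higher and 5 lower, with a median of -0.14. The share called, 47.4%, was again near the 44.6% of all tested genes. Perp, a membrane protein gene, fell by 1.28, Mdm2, the feedback inhibitor of p53, by 0.75, and Pmm1 by 0.52 on the log2 scale. Rrm2b, a ribonucleotide reductase subunit gene, and Gtse1, a G2 phase gene, were higher at 0.72 and 0.56. Sesn2 and Ei24, named after their values were seen, were also higher, at 0.33 and 0.26 (edgeR adjusted p = 0.0147 and 0.0334). Rrm2b overlaps Gm3362 on the same strand. The genes called higher were 2 without control replicate 2 or 3, and those called lower were 8 without idelalisib replicate 2. Cdkn1a, the cell cycle inhibitor p21 and a standard p53 target, chosen after its values were seen, dropped from a mean of 307 to 227 CPM, or -0.43 on the log2 scale (SE 0.10, adjusted p = 0.00263, edgeR).

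Of 16 FOXO factors and FOXO-induced genes, 3 were higher and 7 lower, with a median of -0.20, so 62.5% were called against 44.6% of all tested genes. Klf2 and Txnip, a trafficking regulator and a redox regulator, rose by 2.15 and 1.54 on the log2 scale. Bcl6, a transcriptional repressor, and Cdkn1b, the cell cycle inhibitor p27, fell by 1.84 and 0.75. Bcl2l11 and Bbc3, the members with a FOXO match in the windows above, had log2 fold changes of 0.04 and -0.63.

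Among 10 receptor chains for survival cytokines, which sustain BCL2 family expression in T cells, 5 were higher and 2 lower (median 0.08). The share called was 70%, against 44.6% of all tested genes. Il6ra and Il2ra, the receptor chains for interleukins 6 and 2, were higher at 1.28 and 0.60, and Il7r and Il15ra, those for interleukins 7 and 15, were lower at -0.62 and -0.44. Il7r also counts among the FOXO genes. Higher receptor chains numbered 2 when idelalisib replicate 1 or any 1 control library was left out. Of 15 regulators of MCL1 and BIM protein stability, 6 were higher and 2 lower (median 0.08), or 53.3% called, where 22.2% of all tested genes were higher and 22.4% lower. The lower genes were the kinases Mapk8, at -0.32 (SE 0.12, edgeR adjusted p = 0.0489), and Gsk3b, at -0.28 (SE 0.09, adjusted p = 0.0175) and chosen after its values were seen. Fbxw7, a ubiquitin ligase subunit that targets MCL1, rose by 0.54 (SE 0.11, edgeR adjusted p = 0.00112), and Dynll2, a dynein light chain that tethers BMF, rose by 0.42. Cdc20 and Ube2c, parts of the mitotic ubiquitin machinery, rose by 0.71 and 0.51, and Cdc20 overlaps Elovl1 on the opposite strand. Mapk8 lost its call when any 1 library other than idelalisib replicate 2 was left out (adjusted p up to 0.225), and no stability regulator was called lower without control replicate 1 or 2, or with library size alone. Protein levels were not measured here.

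**Figure D4:**
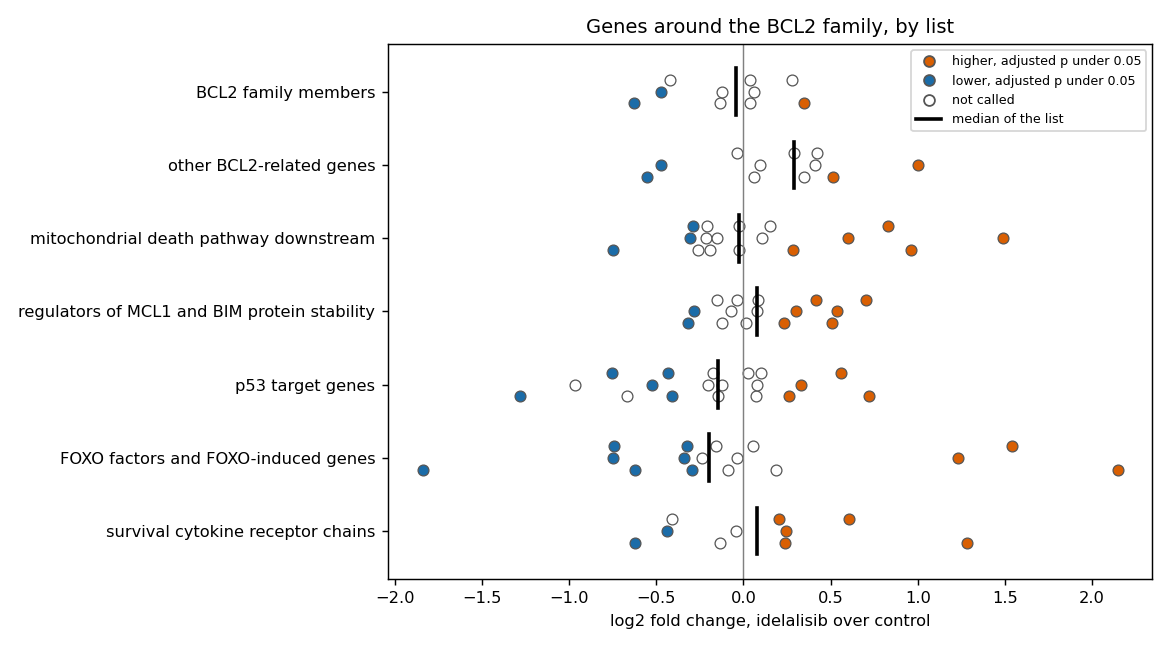
Log2 fold change, idelalisib over control (horizontal axis), of each tested gene in the BCL2 family and in 6 lists around it (rows; vertical offsets only separate points); orange and blue points passed an adjusted p under 0.05 and black bars are list medians. The members span -0.63 to 0.35, and each of the 7 rows holds both higher and lower genes.

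The calls of Bax and Bbc3 held in all 17 alternatives of processing and that of Bak1 in 15. In the plot of alternatives the values from library size alone stand to the right of the others for every member.

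**Figure D5:**
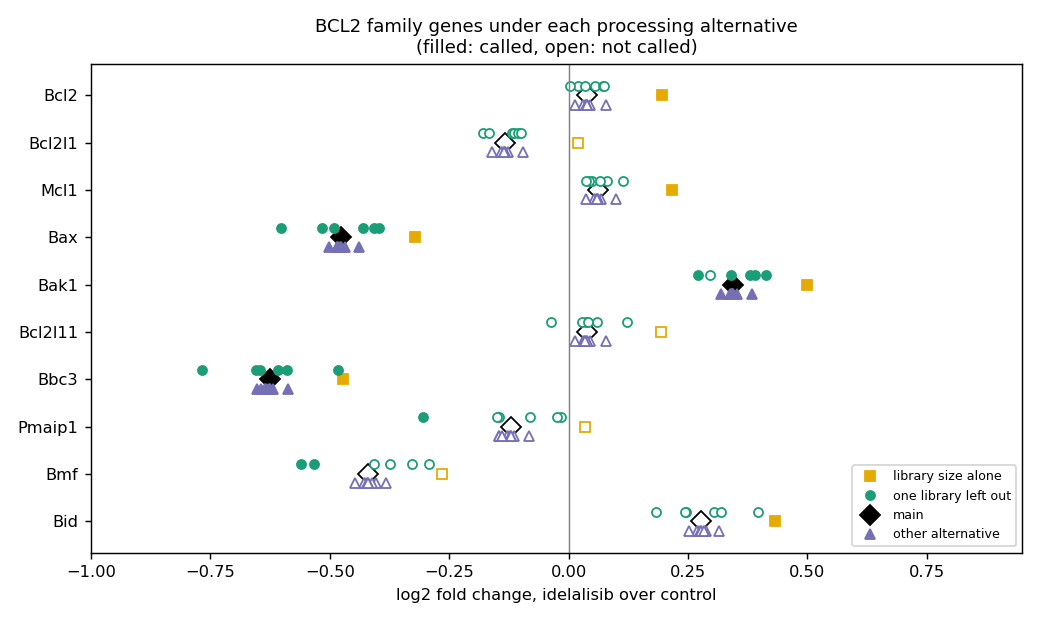
Log2 fold change, idelalisib over control (horizontal axis), of each BCL2 family gene in the main fit (diamonds) and 17 alternatives; filled symbols were called and open ones were not. Bax and Bbc3 are lower and called in every setting, Bak1 is higher in every setting, and Bcl2l1, Bcl2l11 and Pmaip1 each change sign in 1 setting without being called there.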

How the data were processed

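RNA-seq counts of 3 control and 3 idelalisib cultures were used, grouped by sample title. Per the labels' protocols, poly(A) RNA was fragmented and primed with random hexamers. As deposited, values are raw counts, 1 column per library. The submitters' processing notes name mm10 and the tools fastp, HISAT2 (2.0.5) and featureCounts (1.5.0-p3); the strand setting is not given in the sources used here. Gene lengths are those of the deposited table.

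Genes were kept with filterByExpr (minimum count 10, minimum total 15), scaled by TMM and tested in edgeR (version 4.0.16, R 4.3.3; quasi-likelihood F test, robust, group alone, Benjamini-Hochberg over 14530 genes, threshold 0.05). Standard errors come from the fold change and F statistic. On total counts, before TMM scaling, 1 CPM corresponds to 13.4 to 16.8 reads per library. Members and lists were chosen with earlier results of these data known, and so were the motifs. All members and all tested other BCL2-related genes are named; of each other list, up to 5 called genes of at least 1 CPM with the largest changes. Some genes meeting this rule are not reported here. On simulated data, unchanged genes made up more of the calls than the nominal share, so a call close to the threshold deserves caution.

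Alternatives were RLE, upper-quartile and no scaling, DESeq2 1.42.0, limma-voom (limma 3.58.1), other filters, protein-coding genes alone, a threshold of 0.01, no robust estimation, a replicate block and leaving out each library.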

Additional observations from a re-analysis of the deposited data

How the results depend on the processing

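Of 170 values of the 10 members under the 17 alternatives, 162 kept their side of the threshold and none that was called changed sign. Bak1 lost its call at a threshold of 0.01 and without control replicate 3, and 6 calls of other members were gained. The number of members called higher, 1 in the main fit, was 4 with library size alone (Bcl2, Mcl1, Bak1 and Bid), 0 at a threshold of 0.01, and 0 to 1 when 1 library was left out. The number called lower, 2 in the main fit, was 2 to 3 throughout. Over all genes, 3223 were higher and 3256 lower, and at a threshold of 0.01 there were 2138 higher. With library size alone 68.5% of called genes were higher, against 49.7%. Idelalisib replicate 2, which stood apart, did not decide Bax, Bak1 or Bbc3: without it 1 member was higher and 3 lower, Pmaip1 being added.

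In the lists, the number of genes called higher ranged over the alternatives from 0 to 6 for other BCL2-related genes (2 in the main fit; 0 with DESeq2, at a threshold of 0.01 or without control replicate 1, control replicate 3 or idelalisib replicate 3), from 2 to 5 for p53 targets (4) and for cytokine receptor chains (5). The number called lower ranged from 1 to 4 for downstream genes (3; 1 with library size alone), from 0 to 2 for stability regulators (2; 0 with library size alone, at a threshold of 0.01 or without control replicate 1 or 2), from 4 to 8 for p53 targets (5; 8 without idelalisib replicate 2), from 4 to 8 for FOXO genes (7) and from 2 to 3 for receptor chains (2). The higher stability regulators numbered 4 to 7. Higher markers numbered 3 to 7 for B cells (6), 1 to 2 for natural killer cells (2), 0 to 1 for CD8 T cells (1) and 1 to 4 for CD4 T cells (2).

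Groups share replicate numbers, and the labels do not say whether these numbers pair the samples. Deviations of same-numbered libraries from their group means correlated at 0.0764, -0.132 and -0.101 over genes. Differently numbered libraries correlated at -0.118 to 0.193. With 3 libraries per group, these values cannot decide whether the samples are paired. With the replicate block 2910 genes were higher and 3051 lower, the members called stayed at 1 higher and 2 lower, and Bax, Bak1 and Bbc3 had log2 fold changes of -0.49, 0.34 and -0.64. With lengths of the longest coding transcript, added after seeing the data, the ratio of anti-apoptotic to pro-apoptotic RPKM averaged 1.434 in control and 1.687 in idelalisib libraries, against 1.548 and 1.823 with the deposited lengths. Depth limits Bmf and Bik, whose reads per library were few.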
